A study of Drosophila melanogaster with 12 samples.

Results

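The transcriptional effects of 2 homeodomain proteins, Slou and Msh, were set against each other gene by gene in sorted mesodermal cells of Drosophila melanogaster embryos. For every probe set the quantity is the Slou effect (Slou gain of function minus its wild-type arrays) minus the Msh effect (Msh gain of function minus its wild-type arrays), on the log2 scale. All 12 arrays of the study entered. Probe sets were kept where the array annotation names 1 gene and the mean was at least 5 in each of the 4 groups, which left 4678 of the 18769 probe sets that are not controls, for 4462 genes.

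Somatic muscles of the fly embryo arise from founder cells, each of which expresses its own combination of identity transcription factors and then fuses with fusion-competent myoblasts. Slou (slouch, also called S59, an NK homeodomain protein) and Msh (muscle segment homeobox, encoded by Dr) are such identity factors and mark different subsets of founders. Forced expression throughout the mesoderm asks which genes respond to one factor, to the other, or to both.

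Each group had 3 arrays, lettered A to C, and all embryos were at late stage 11 to early stage 12. Every group, controls included, carried twi-gal4 and UAS-GFP, and GFP-positive cells were sorted, so that the transgenes act in cells with a history of Twist expression. WT set 1 and WT set 2 carried nothing more, the Slou arrays also carried UAS-S59, and the Msh arrays also carried UAS-msh. No label ties a wild-type set to one of the gains of function or states that the arrays of a group are separate embryo collections. Slou is paired with WT set 1, and Msh with WT set 2, because each pair shares a scaling of the deposited values. Each p-value reflects spread between arrays alone, which limma draws partly from all probe sets and which may be technical.

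The 2 pairs of groups were scaled apart. Array medians were 2.59 to 2.72 in WT set 1 and Slou, and 3.84 to 3.90 in WT set 2 and Msh. Levels are therefore compared only within a scaling, and the 2 effects share no array. A mean of 5 was reached by 4892 one-gene probe sets in WT set 1 and 4886 in Slou, against 6725 in WT set 2 and 6752 in Msh, so the first scaling set most of the membership. Of the 4891 one-gene probe sets at 5 or more in both wild-type sets, 212 were below 5 in Slou and 2 below 5 in Msh, and genes that Slou lowered to a low level are thus left out. The members closest above the limit, CG5726, CG17032 and Hr39, had differences of 0.55, 1.24 and 0.14, and the probe sets closest below it, alphaSnap, fray and CG17249, had 0.23, 0.45 and -0.02. Among members the median SD between the arrays of a group was 0.0475 in Msh and 0.0762 to 0.0792 in the other groups. Among one-gene probe sets that are not members it was 0.469 in Msh and up to 0.805 in WT set 1. Since limma pools spread over all probe sets, a member's standard error can exceed what its own arrays give.

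The Slou and Msh effects differed for 1020 of the 4678 members. This difference passed an adjusted p of 0.05 (limma) for 21.8% of members, against 9.22% of all 18769 probe sets. It was higher in Slou for 556 members, 11.9% (background 4.76%), and lower in Slou for 464, 9.92% (background 4.46%). Members are the brighter probe sets with the smaller spread, and the share that passed rose from 16% in the lowest tertile of levels to 25.6% in the highest, while the median standard error of the difference went from 0.156 to 0.106. Taken by itself, the Slou effect passed for 187 members, 107 higher (background 1.24%) and 80 lower (background 1.08%), against 2.31% of all probe sets in either direction. The Msh effect by itself passed for 600 members, 198 higher (background 2.86%) and 402 lower (background 3.95%), against 6.81% of all probe sets in either direction. The 58 members called in both were 31% of those called for Slou and 9.67% of those called for Msh, which made up 12.8% of all members.

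Of the 1020 members, 801 had effects of opposite sign, 403 with a positive Slou and a negative Msh effect and 398 the other way round. Selection for a large difference favours opposed signs, so this count is no separate result. In 456 of the 1020 the Slou effect was the larger in size. Of the differences, 124 lay in members that passed for Slou alone and 360 in members that passed for Msh alone. A further 37 lay in members that passed for both, and 499 in members where neither single effect passed. Over all 4678 members the effects were nearly unrelated, with Pearson r 0.0497 and Spearman rho 0.0133 across genes, which are not independent replicates and which share the arrays of each scaling. The signs matched in 2346 members, 50.1%.

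**Figure D1:**
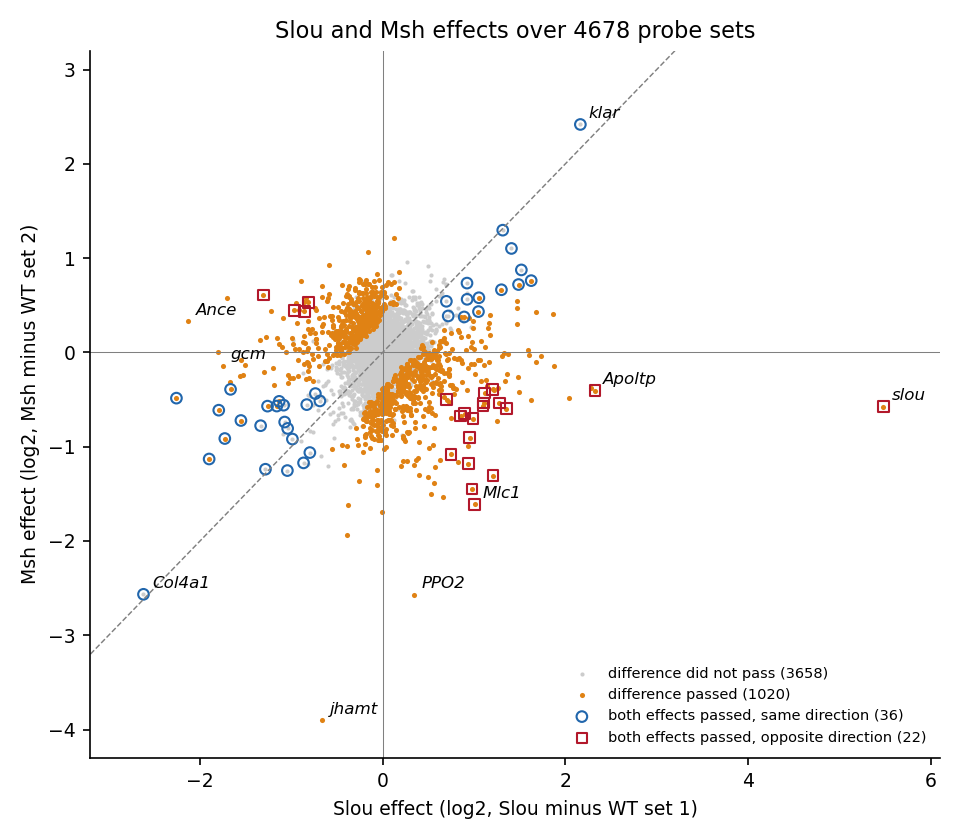
Msh effect (y axis, log2) against Slou effect (x axis, log2) for each of the 4678 members. Orange points are the 1020 members whose difference passed, blue circles the 36 called in both effects with one direction, and red squares the 22 called in both with opposite directions. The dashed line marks equal effects. Col4a1 and klar lie close to it at opposite ends, and slou, jhamt and PPO2 lie far from it.

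The slou probe set, which bears on the check of UAS-S59, read 5.45, 5.69 and 5.61 in WT set 1 and 11.01, 11.08 and 11.12 in Slou, and in the other scaling 6.62, 6.32 and 6.53 in WT set 2 and 5.93, 5.93 and 5.89 in Msh. The groups did not overlap in either scaling, and the changes ran in opposite directions. The difference of effects was 6.06 (SE 0.14, adjusted p = 2.0e-07), the highest among members. Dr, which encodes Msh, is not a member because its Slou mean was below 5. Its values were 6.90, 6.87 and 6.73 in WT set 1 and 3.88, 4.23 and 4.0 in Slou, where it fell by 2.80 (SE 0.14, adjusted p = 0.0057). In WT set 2 it read 8.77, 9.17 and 9.16 and in Msh 9.34, 9.34 and 9.38, a change of 0.32 that did not pass (SE 0.14, adjusted p = 0.25). The arrays labelled Msh therefore show no called rise of Dr on this probe set, and every direction drawn from them rests on the label. Whether these probe sets cover the UAS-S59 and UAS-msh transcripts, apart from the genes' own, is not given.

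Both effects passed in the same direction for 36 members, 14 up and 22 down, or 0.77% against 0.511% of all probe sets. With 1 probe set per gene they were 34. Members also passed more often than all probe sets in each single effect, so this share is no separate result. The count depends on the fit, with 475 under an intensity trend and 0 without WT set 1 C. In 15 of the 36 the sizes still differed. The collagen Col4a1, a chain of the basement membrane's type IV collagen, read 8.26, 8.19 and 8.27 in WT set 1 and 5.57, 5.67 and 5.63 in Slou, and 10.15, 10.09 and 10.16 in WT set 2 and 7.65, 7.45 and 7.61 in Msh. Neither pair of groups overlapped, with effects of -2.62 in Slou and -2.57 in Msh and a difference of -0.05 (SE 0.11, adjusted p = 0.86). Tig (tiggrin), a matrix ligand of integrins, read 6.81, 6.99 and 6.94 in WT set 1, 5.84, 6.0 and 5.78 in Slou, 9.16, 8.89 and 9.05 in WT set 2 and 7.74, 7.86 and 7.74 in Msh. It too was lower on every gain-of-function array than on any wild-type array of its scaling, with effects of -1.04 and -1.25.

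Among the shared rises the largest in both was klar (klarsicht), which links nuclei to microtubules. It read 5.26, 4.98 and 4.93 in WT set 1 and 7.17, 7.12 and 7.36 in Slou, then 7.25, 7.54 and 7.38 in WT set 2 and 9.85, 9.78 and 9.79 in Msh. The groups were far apart in both scalings, with rises of 2.16 and 2.42 that did not differ beyond their error (difference -0.25, SE 0.17, adjusted p = 0.47). Ect3, a beta-galactosidase, rose by 1.31 and 1.30, with 5.62, 5.49 and 5.65 in WT set 1 against 6.77, 6.95 and 6.99 in Slou, and 7.01, 6.83 and 7.01 in WT set 2 against 8.31, 8.22 and 8.21 in Msh. The fusion adaptor rols (rolling pebbles), which acts in founder cells, rose by 0.92 and 0.74, and the translational repressor pum (pumilio) by 1.52 and 0.88. Other shared rises were CG30043 (1.41 and 1.10), CG33090 (1.63 and 0.76), CG12177 (1.49 and 0.72) and GILT3 (1.30 and 0.66). The differences of CG33090, CG12177 and GILT3 passed, each larger in Slou. Shared drops were also seen for CngA, a cyclic nucleotide gated channel subunit (-0.99 and -0.92), CG42324 (-1.28 and -1.24), CG30344 (-1.73 and -0.91), CG6610 (-0.87 and -1.17), CG18754 (-1.04 and -0.81) and Ssb-c31a (-0.80 and -1.06). Of these only the difference of CG30344 passed.

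Genes called in both effects with opposite directions numbered 22 members, 0.47% against a background of 0.202%, of which 18 rose in Slou and fell in Msh and 4 did the reverse. All 22 differences passed, which is no separate result, since the difference adds the sizes of opposed effects. The myosin light chain Mlc1 read 6.03, 6.01 and 5.92 in WT set 1 and 7.13, 6.88 and 6.97 in Slou, against 9.09, 8.90 and 9.03 in WT set 2 and 7.45, 7.21 and 7.52 in Msh. The troponin C gene TpnC73F read 6.25, 6.13 and 6.26 in WT set 1 and 7.42, 7.47 and 7.36 in Slou, against 9.65, 9.68 and 9.67 in WT set 2 and 8.42, 8.29 and 8.37 in Msh. In neither gene did groups of one scaling overlap, and the differences were 2.62 (SE 0.15) and 2.52 (SE 0.11), with adjusted p of 3.8e-05 and 7.9e-06.

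The same pattern of a rise in Slou and a drop in Msh was called for alphaTub85E, an alpha tubulin (0.94 and -1.18), mnd, an amino acid transporter (0.95 and -0.90), and Kaz-m1, a Kazal-type protease inhibitor encoded in the Enhancer of split complex (0.99 and -0.70). It was also called for CG5177 (0.98 and -1.45), CG34417 (0.85 and -0.67) and CG11158 (0.90 and -0.65). In the other direction, DAAM, a formin that assembles actin filaments, read 6.87, 6.64 and 6.81 in WT set 1 and 5.77, 5.83 and 5.83 in Slou, and 8.59, 8.66 and 8.50 in WT set 2 and 9.04, 9.0 and 9.04 in Msh. It was lower on all Slou arrays and higher on all Msh arrays than on any array of its wild-type set. Brd (Bearded), an inhibitor of the Notch pathway ligase Neuralized, went the same way (-0.86 and 0.44), as did CG2930 (-1.31 and 0.61) and CG8312 (-0.81 and 0.53).

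These calls in both effects rest on all arrays. Each single effect was fitted on 6 arrays, and the cause of the lower counts below was not tested. The members called for Slou went from 187 to 9, 9 and 0 without WT set 1 A, B and C, and to 8, 4 and 8 without Slou A, B and C; without WT set 1 C, 773 members still had an unadjusted p under 0.05. The members called for Msh went from 600 to 225, 49 and 61 without WT set 2 A, B and C, and to 3, 5 and 6 without Msh A, B and C. The shared and opposed counts fell accordingly, to between 0 and 21 and between 0 and 7. The difference of effects, fitted on all 12 arrays, was steadier: 632, 597 and 617 members passed without Msh A, B and C, and 686 to 802 without any other array. Of the 1020 members, 597 to 773 were called again without a single array. All 1020 kept their sign each time, which is little of a check because they were chosen on the same arrays.

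**Figure D2:**
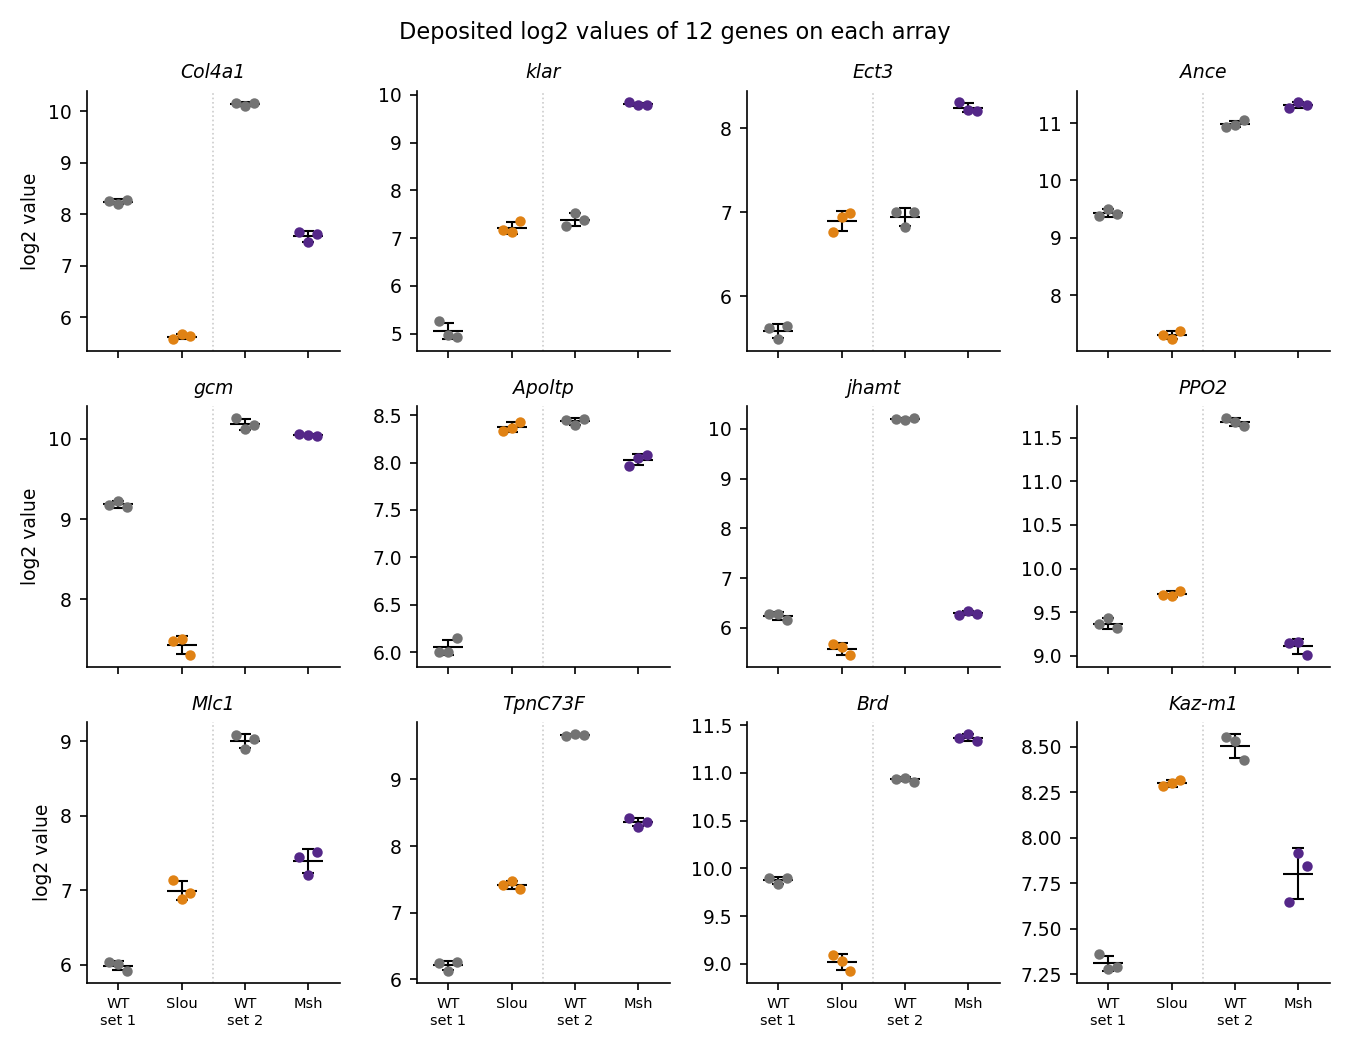
Deposited log2 values (y axis) of 12 genes on each of the 12 arrays, as points, with the mean and SD of the 3 arrays of a group. The dotted line separates the 2 scalings, across which heights are not compared. Col4a1, klar and Ect3 shift alike in both scalings, Mlc1, TpnC73F, Brd and Kaz-m1 shift oppositely, and Ance, gcm, Apoltp, jhamt and PPO2 shift mainly in one scaling.

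Several of the largest differences came mainly from Slou. Apoltp, a lipid transfer particle apolipoprotein, read 6.0, 6.01 and 6.15 in WT set 1 and 8.33, 8.36 and 8.43 in Slou, and 8.45, 8.39 and 8.45 in WT set 2 and 7.97, 8.05 and 8.08 in Msh. It rose by 2.32 in Slou and fell by 0.40 in Msh, a difference of 2.73 (SE 0.11, adjusted p = 5.5e-06). MESR3 rose by 2.28 in Slou with a Msh effect of -0.37 that did not pass, and GstT4, a glutathione S-transferase, rose by 2.04 with a Msh effect of -0.48 that did not pass. Among drops, Ance, an angiotensin-converting enzyme, read 9.38, 9.51 and 9.41 in WT set 1 and 7.30, 7.23 and 7.37 in Slou, while WT set 2 read 10.93, 10.97 and 11.05 and Msh 11.27, 11.36 and 11.31. The Slou arrays lay about 2 units below their controls and the Msh arrays slightly above theirs, and the difference of -2.46 (SE 0.11, adjusted p = 8.6e-06) was the lowest among members.

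The transcription factor gcm (glial cells missing), which acts in glia and hemocytes, read 9.17, 9.23 and 9.15 in WT set 1 and 7.48, 7.51 and 7.31 in Slou, and 10.26, 10.12 and 10.17 in WT set 2 and 10.06, 10.04 and 10.03 in Msh. It fell by 1.75 in Slou, and its Msh effect of -0.14 did not pass. Dip-C, a dipeptidase, fell by 1.81 in Slou with a Msh effect of 0.00, CG40006 by 1.55 with -0.08, and CG5002 by 1.70 with 0.58, and none of these Msh effects passed. CG13315 fell in both, with effects of -2.26 in Slou and -0.48 in Msh. Rnf11, a RING finger protein, fell by 0.89 in Slou beside a Msh effect of 0.76 with an adjusted p of 0.050, and kmr rose by 0.93 in Msh beside a Slou effect of -0.58 that did not pass.

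Other large differences came from Msh. The juvenile hormone acid methyltransferase gene jhamt read 10.19, 10.19 and 10.21 in WT set 2 and 6.26, 6.35 and 6.29 in Msh, against 6.29, 6.28 and 6.16 in WT set 1 and 5.67, 5.61 and 5.45 in Slou. Its effect of -3.9 in Msh (adjusted p = 0.00087) was the lowest Msh effect of any member, while its Slou effect of -0.66 did not pass (adjusted p = 0.065). The wild-type sets themselves stood apart at this gene, by -2.11 after all 12 arrays were put on 1 distribution. PPO2, a prophenoloxidase of crystal cells, read 11.72, 11.68 and 11.63 in WT set 2 and 9.15, 9.16 and 9.01 in Msh, against 9.36, 9.43 and 9.32 in WT set 1 and 9.69, 9.69 and 9.75 in Slou. It fell by 2.57 in Msh, and its Slou effect of 0.34 did not pass. CG34200 fell by 1.53 in Msh with a Slou effect of 0.66 that did not pass.

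Gene lists were described with 1 probe set per gene, for which 11.7% of 4462 genes were higher and 9.95% lower in Slou, with a median difference of -0.01. On the same basis 2.33% were higher and 1.7% lower for the Slou effect, and 4.35% higher and 8.49% lower for the Msh effect. A list count near these shares is no result about the list. Lists hold members only, so genes under the limit are left out, and lists can share genes. In bulk RNA of sorted cells, fewer cells of a type and less RNA per cell cannot be told apart.

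Genes for mitochondrial translation and respiration were lower in Msh and nearly level in Slou. All 69 mitochondrial ribosomal protein genes named on the array were members. Of these, 39 fell in Msh, 30 had a negative Msh effect that did not pass, and none passed in Slou, where 1 had an unadjusted p under 0.05 (limma). With an intensity trend in the limma fit, 11 of these genes were called for Slou and 64 for Msh. Their median effect was -0.47 in Msh and -0.08 in Slou, and the difference passed as higher in Slou for 32 of 69 and as lower for none. mRpL20 read 8.68, 8.72 and 8.75 in WT set 2 and 7.65, 7.63 and 7.84 in Msh, while WT set 1 read 6.51, 6.50 and 6.67 and Slou 6.41, 6.46 and 6.39. The Msh arrays stood well below their controls, and the Slou arrays stood just under theirs. mRpL41 fell by 0.92, mRpL17 by 0.83, mRpL33 by 0.74 and mRpL51 by 0.73 in Msh, with Slou effects between -0.09 and 0.24 that did not pass.

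Of 71 respiratory chain and ATP synthase subunits named on the array, 50 were members, and they behaved alike. In Msh 33 were lower, and the medians were -0.51 in Msh and -0.05 in Slou. None was called in Slou (0 at an unadjusted p under 0.05 in limma), against 6 with an intensity trend. The difference passed for 28, all higher in Slou. ND-13B, a complex I subunit, read 8.50, 8.50 and 8.63 in WT set 2 and 7.59, 7.59 and 7.67 in Msh, against 6.46, 6.49 and 6.41 in WT set 1 and 6.46, 6.49 and 6.30 in Slou. Only the Msh pair of groups was separate. The complex I subunits ND-15, ND-13A and ND-18 fell by 0.87, 0.81 and 0.60 in Msh, and ATPsynCF6, an ATP synthase subunit, by 0.72.

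Fewer genes passed without single arrays, while the list medians stayed between 0.39 and 0.46 whichever array was left out. The ribosomal list gave 21, 21, 16 and 17 without Slou B and Msh A, B and C, and the respiratory list gave 16, 18, 16, 16, 15 and 16 without WT set 1 B, Slou A, WT set 2 B and Msh A, B and C. Cytosolic ribosomal and proteasome genes had medians near those of all genes. None of the 30 cytosolic ribosomal protein genes and none of the 26 proteasome subunits passed for the difference or for either effect in limma; at an unadjusted p under 0.05 the difference had 2 and 1, the Slou effect 0 and 1, and the Msh effect 2 and 6. Their median differences were both 0.02, with Msh medians of -0.03 and -0.10. In 14 mitochondrial import genes the medians were -0.26 in Msh, -0.06 in Slou and 0.27 for the difference, which was positive in 13. Of these genes 3 fell in Msh (10 were lower at an unadjusted p under 0.05), and only Tom7, an outer membrane translocase subunit, passed for the difference (0.40, adjusted p = 0.049, lost without 11 of the 12 arrays), where 7 were higher at an unadjusted p under 0.05. The 9 TCA cycle genes all had negative Msh effects, with medians of -0.11 in Msh and -0.12 in Slou. Their difference passed for 1, Ogdh, the oxoglutarate dehydrogenase subunit, which rose by 1.11 in Slou. This 1 of 9 is close to the share of all genes that were higher.

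Within the second scaling the mean 3' minus 5' signal of the Act5C, GAPDH and eIF-4a controls was higher in Msh than in WT set 2, with overlapping arrays for GAPDH. In the first scaling it was higher in Slou than in WT set 1 for Act5C and GAPDH and lower for eIF-4a. The Act5C control's 3' minus 5' signal was 2.23 ± 0.10 in Msh (SD, n = 3), against 1.44 ± 0.02 in WT set 1, 1.47 ± 0.02 in Slou and 1.44 ± 0.04 in WT set 2. The GAPDH control was 2.80 ± 0.19 in Msh and 2.69 ± 0.31 in WT set 2, against 3.61 ± 0.11 in Slou and 3.05 ± 0.04 in WT set 1, and the eIF-4a control 1.74 ± 0.07 in Msh and 1.52 ± 0.10 in WT set 2, against 1.62 ± 0.03 in Slou and 1.65 ± 0.04 in WT set 1. The mean of the poly-A spike controls was lower with both factors, 9.11 ± 0.15 in Msh against 10.75 ± 0.45 in WT set 2, and 6.04 ± 0.11 in Slou against 6.71 ± 0.03 in WT set 1. The part of these shifts in the Msh drops was not tested.

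**Figure D3:**
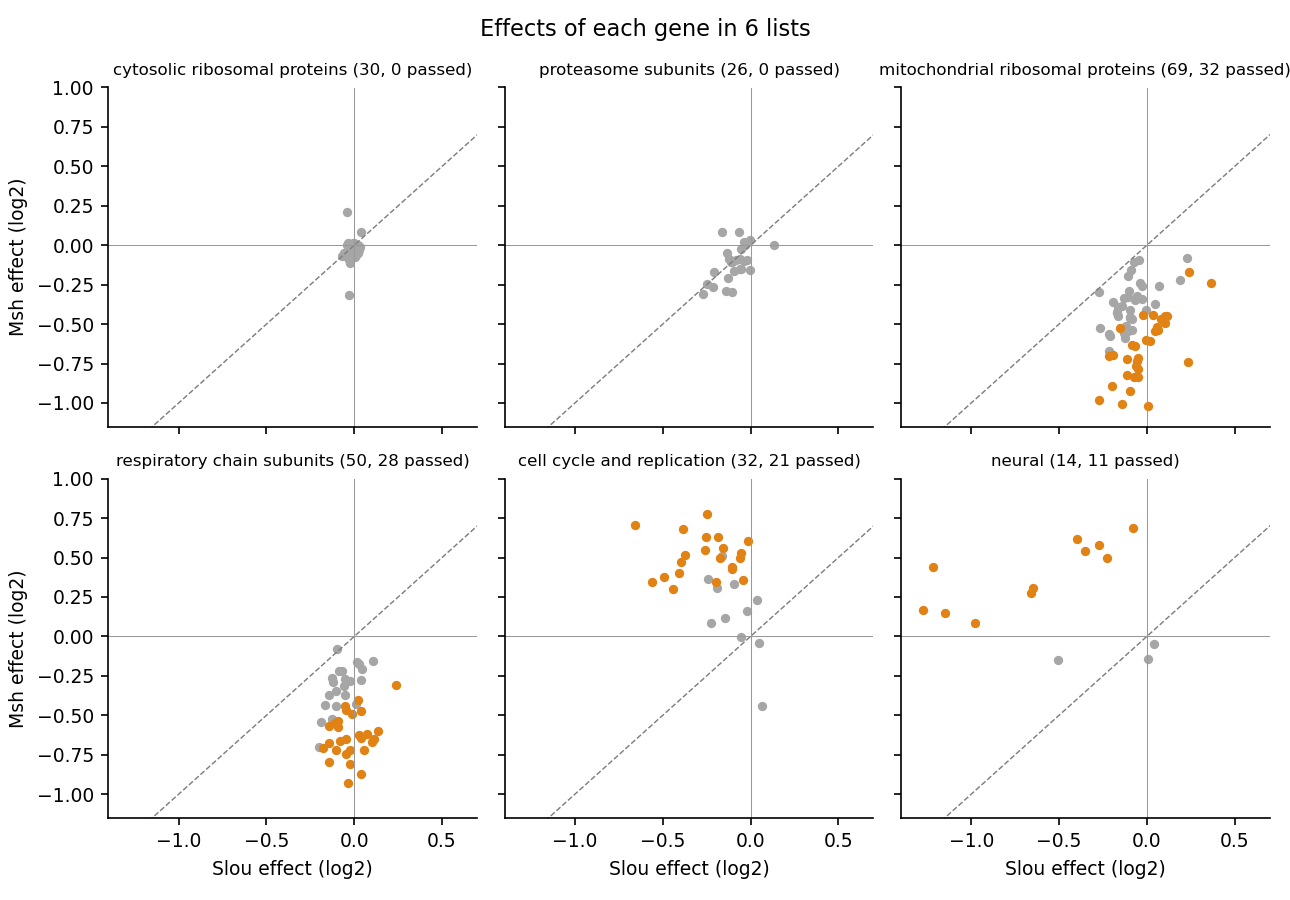
Msh effect (y axis, log2) against Slou effect (x axis, log2) of each gene in 6 lists, with genes whose difference passed in orange and the line of equal effects dashed. Mitochondrial ribosomal and respiratory chain genes lie below the line with Slou effects near 0, cytosolic ribosomal and proteasome genes lie around the origin, and cell cycle and neural genes lie above the line.

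Glycolytic genes differed in the same direction, with Slou effects that were positive in 5 genes and negative in 1. Of 10 list genes named on the array 6 were members. The difference passed for 5 of these 6, all higher in Slou, with medians of 0.32 in Slou and -0.55 in Msh. Eno (enolase) read 10.95, 10.93 and 10.83 in WT set 2 and 9.51, 9.58 and 9.47 in Msh, against 7.59, 7.81 and 7.96 in WT set 1 and 8.36, 8.34 and 8.35 in Slou. The groups were separate in both scalings, although the Slou effect of 0.56 did not pass (adjusted p = 0.14). Only Gpdh1, the glycerol-3-phosphate dehydrogenase, passed for the Slou effect, with a rise of 1.07. The aldolase Ald1 and the kinase Pgk fell in Msh by 0.98 and 0.49.

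Cell cycle and replication genes ran the other way. Of 32 members, from 36 list genes named on the array, the difference passed for 21, all lower in Slou, and 14 rose in Msh. None passed in Slou, where 11 had an unadjusted p under 0.05 in limma, all of them lower. With an intensity trend in the limma fit, 15 of the 32 were called for Slou and 27 for Msh. The median was 0.42 in Msh and -0.18 in Slou. Cks30A, a cyclin-dependent kinase subunit, read 9.03, 9.09 and 8.95 in WT set 2 and 9.85, 9.74 and 9.81 in Msh, against 7.41, 7.36 and 7.36 in WT set 1 and 7.12, 7.13 and 7.13 in Slou. It was higher on all Msh arrays and lower on all Slou arrays than on their controls. The licensing factor dup (double parked) rose by 0.68 in Msh, the helicase subunit dpa by 0.63, the chromosomal passenger Incenp by 0.63 and the cyclin CycB3 by 0.55, with Slou effects between -0.38 and -0.19 that did not pass.

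For neural genes the Slou effect was below the Msh effect in 12 of 14, where 4 passed as lower for Slou and 4 as higher for Msh. The difference passed for 11 of 14, all lower, with medians of -0.45 in Slou and 0.29 in Msh. In Slou tap, a proneural-type bHLH gene, read 6.63, 6.67 and 6.71 against 7.89, 7.90 and 7.87 in WT set 1, and in Msh 11.09, 11.06 and 11.12 against 10.51, 10.73 and 10.72 in WT set 2. No groups overlapped, and it fell by 1.22 in Slou beside a Msh effect of 0.44 that did not pass (adjusted p = 0.063). The SoxB gene D (Dichaete) fell by 1.27, the zinc finger gene nerfin-1 by 1.15 and pros (prospero) by 0.98 in Slou with no passing Msh effect, while ase (asense) rose by 0.58 in Msh with no passing Slou effect. All 4 measured neural markers (elav, pros, nerfin-1 and sens) had a passing difference. Their mean over the arrays of a group was 7.03 to 7.25 in WT set 1 and 6.28 to 6.30 in Slou, and 9.42 to 9.61 in WT set 2 and 9.93 to 9.99 in Msh. The marker sens is not a member and was under the limit in the first scaling, at 4.10 in WT set 1 and 3.47 in Slou.

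Epidermal and tracheal genes showed a similar order, with medians of -0.13 in Slou and 0.37 in Msh. The difference passed as lower in Slou for 7 of 13 and as higher for 1, pnr, whose call was lost without 11 of the 12 arrays and after quantile normalization. In Msh 4 rose, among them the polarity genes crb (crumbs, 0.57) and sdt (stardust, 0.77) and the epidermal factor grh (grainy head, 0.68), and none passed in Slou (limma; 3 higher and 1 lower at an unadjusted p under 0.05). The count of 8 passing differences fell to between 3 and 5 without any 1 array other than WT set 2 A, without which it was 7. With an intensity trend in the limma fit, 7 of the 13 genes were called for Slou and 9 for Msh. The markers crb, sdt, grh and btl averaged 4.59 to 5.28 in WT set 1, 5.11 to 5.57 in Slou, 7.88 to 8.05 in WT set 2 and 8.70 to 8.80 in Msh, with btl under 5 in both groups of the first scaling. The higher Slou mean came from btl, at 1.95 in WT set 1 and 3.78 in Slou. The Slou effects of crb, sdt and grh were -0.14, -0.25 and -0.30, and none passed. The part of neural and epidermal cells in the sorted samples was not tested.

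Among general mesoderm genes, the markers twi, zfh1 and htl were well above the limit in every group and none had a passing difference; twi rose by 0.91 in Msh beside a Slou effect of 0.49 that did not pass. Of 9 general mesoderm factors only bap, an NK factor of the visceral mesoderm, passed for the difference (-1.06, adjusted p = 0.015), with neither effect passing alone; 1 of 9 is close to the share of all genes that were lower. The germline marker vas was below 5 in all groups.

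Of 28 contractile and sarcomeric genes named on the array 12 were members. The difference passed for 5 of the 12, all higher in Slou: Mlc1 and TpnC73F above, the muscle LIM protein Mlp60A (difference 2.04, Msh effect -1.5), the calcium pump SERCA (0.82) and flr (0.64, lost without 10 of the 12 arrays), an actin regulator. The other 7 did not pass. The difference was positive in 10 of the 12, with a median of 0.26, and 9 were higher at an unadjusted p under 0.05. Only Actn (alpha-actinin, -0.02) and sls (sallimus, titin-like, -0.10) were negative. In the fusion list 4 of 17 were higher and 1 lower. The fusion receptor sns (sticks and stones), which marks fusion-competent myoblasts, read 6.0, 5.83 and 5.44 in WT set 1 and 7.29, 7.39 and 7.36 in Slou, against 9.89, 9.81 and 9.88 in WT set 2 and 9.89, 9.86 and 9.92 in Msh. It rose by 1.59 in Slou and stayed within 0.03 of its control in Msh. The fusion gene blow (blown fuse) rose by 0.70 in Slou; Vrp1, which acts with WASp, and sing (singles bar) had passing differences of 0.68 and 0.38 with no single effect passing. The founder cell receptor kirre (kin of irre) was the one lower gene, at -0.53. The call of sing was lost without any 1 of the 12 arrays, and that of kirre without 7 of them.

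At the muscle attachment, 4 of 19 integrin and attachment genes were higher and 1 lower. Vinc (vinculin) rose by 1.36 in Slou beside -0.23 in Msh, and Pax (paxillin) fell by 0.71 in Msh beside 0.07 in Slou. Grip, a PDZ protein of muscle guidance (1.03), and the integrin-linked kinase Ilk (0.61) had passing differences with no single effect passing, and rhea, which encodes talin, was lower (-0.48). Without Msh B the count was 3 rather than 5. The basement membrane list had 3 higher and 2 lower of 12. The collagen-binding glycoprotein SPARC read 7.74, 7.77 and 7.81 in WT set 1 and 8.83, 8.92 and 8.92 in Slou, against 9.79, 9.69 and 9.79 in WT set 2 and 9.36, 9.32 and 9.29 in Msh. It rose in Slou by 1.12 and fell in Msh by 0.43, whereas Col4a1 fell in both. Pxn (peroxidasin) rose by 1.08 and Ndg (nidogen) fell by 1.02 in Slou, with Msh effects of 0.13 and -0.27 that did not pass. Plod, a lysyl hydroxylase of collagen, had a difference of 0.72 and Ppn (papilin) of -0.40, the latter lost without 11 of the 12 arrays.

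Muscle identity factors were mostly below the limit: 7 of the 25 named on the array were members. Apart from slou, the differences of nub (-0.85) and Kr (-0.71) passed, both lower in Slou with no single effect passing, and these calls were lost without 9 and 11 of the single arrays. kn (knot) fell by 0.84 in Msh beside a Slou effect of -0.76 that did not pass, so its difference was 0.08. The LIM-homeodomain gene tup (-0.96) and the homeodomain gene so (sine oculis) (0.18) did not pass. In the cardiac list 1 of 6 was higher, pnr (0.59, lost without 11 of the 12 arrays), and 1 lower, the T-box gene Doc1, which fell by 1.09 in Slou. The cardiac markers Hand, Doc2 and pnr all had passing differences (-1.73, -1.82 and 0.59) and averaged 6.1 to 6.17 in WT set 1, 5.01 to 5.17 in Slou, 7.70 to 7.81 in WT set 2 and 7.69 to 7.74 in Msh. Hand and Doc2 are not members and read 3.94 and 3.42 in Slou, under the limit, with Doc2 at 4.91 in WT set 1. The lower Slou mean came from these, while pnr had a Slou effect of 0.56 that did not pass. In the visceral list 2 of 5 were lower, bap and HLH54F, a bHLH gene of the caudal visceral mesoderm that fell by 1.53 in Slou. The visceral markers bap and bin averaged 6.42 to 6.69 in WT set 1, 5.24 to 5.43 in Slou, 7.4 to 7.50 in WT set 2 and 7.63 to 7.66 in Msh, and both differences passed. The marker bin is not a member, with a mean of 4.84 in Slou.

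Hemocyte genes had no common direction, with 3 higher and 2 lower of 13. Beside PPO2, Pxn, Ance and gcm, the prophenoloxidase PPO1 fell by 0.97 in Msh with a Slou effect of -0.20 that did not pass. The 5 hemocyte markers averaged 7.45 to 7.60 in WT set 1, 7.30 to 7.68 in Slou, 9.0 to 9.27 in WT set 2 and 8.14 to 8.35 in Msh, with 3 passing differences. Hml, below 5 in every group, made most of the lower Msh mean. The other 4 averaged 8.66 to 8.68, 8.69 to 8.84, 10.36 to 10.55 and 10.22 to 10.31 in the same order. Of 5 fat body genes 2 were higher and 1 lower: the acyltransferase mdy (midway) fell by 1.16 and the lipid droplet protein Lsd-2 by 0.66 in Msh, and the lipase bmm (brummer) differed by -0.69. The fat body markers apolpp and svp averaged 6.50 to 6.74 in WT set 1, 4.67 to 4.83 in Slou, 8.65 to 8.90 in WT set 2 and 7.94 to 8.08 in Msh, and apolpp passed (-1.44). Neither marker is a member, with means of 4.52 and 4.93 in Slou. The part of these cell types in the results was not tested. In the list of ecdysone and hormone genes, ImpL2, a secreted insulin-binding protein, fell by 0.99 in Slou beside 0.16 in Msh, opposite in the sign of its difference to jhamt.

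Notch pathway genes had 2 higher and 7 lower of 23. Bearded-family genes made up 5 of the lower ones, namely Brd, Tom, BobA, Ocho and E(spl)m4-BFM (-0.43), while E(spl)m2-BFM of the same family was higher (0.41) and E(spl)malpha-BFM did not pass (0.14). Tom (Twin of m4) read 11.39, 11.41 and 11.42 in WT set 1 and 10.68, 10.66 and 10.72 in Slou, against 12.72, 12.78 and 12.75 in WT set 2 and 12.85, 12.85 and 12.85 in Msh. BobA (Brother of Bearded A) read 9.94, 9.95 and 10.04 in WT set 1 and 9.08, 9.16 and 9.08 in Slou, against 11.55, 11.63 and 11.67 in WT set 2 and 11.63, 11.65 and 11.58 in Msh. Ocho fell by 0.86 in Slou with a Msh effect of -0.12 that did not pass. Tom, BobA, Ocho and Brd fell in Slou, with differences of -0.83, -0.88, -0.74 and -1.29, and they lie next to each other in the order BobA, Tom, Brd, Ocho among member genes of the RefSeq annotation. Whether the probe sets of these paralogs share hybridisation was not tested.

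In 4 further signalling and surface lists most passing differences were lower in Slou. The Dpp pathway had 5 lower and 1 higher (pnr, lost without 11 arrays) of 11, including the inhibitory Smad Dad (-1.17), which rose by 0.57 in Msh, the receptor tkv (-0.65) and the factor shn (-0.66). The Wingless and Hedgehog list had 4 lower of 14: the antagonist nkd (naked cuticle) rose by 0.60 and the homeodomain gene en (engrailed) by 0.52 in Msh, gsb (gooseberry) fell by 1.68 in Slou, and the Hedgehog receptor ptc differed by -0.51, lost without 9 of the 12 arrays. The receptor tyrosine kinase list had 4 lower of 15, edl, an antagonist of ETS factors (-1.02), the ligand spi (-0.39), the repressor aop (-0.43) and the receptor Egfr (-0.50), of which 1 or 2 passed when any 1 array was left out. Among 21 cell surface receptors 6 were lower, such as Tl (Toll, -0.79), trn (tartan, -0.74), beat-IIIc (-0.71) and Ten-a (-0.57), and sns was the one higher.

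In the JNK and stress list 3 were higher and 2 lower of 14. The JNK phosphatase gene puc (puckered) rose by 1.18 and the small heat shock gene Hsp27 by 0.86 in Slou, and GstD1, an oxidative stress gene, fell by 0.80 in Msh. The chaperones Hsc70-3 (-0.71) and Hsc70-4 (-0.34) were lower. Leaving out any 1 array left 2 or 3 of the 5, and the calls of puc, Hsp27 and Hsc70-4 were lost without 8, 11 and 12 of the arrays.

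**Figure D4:**
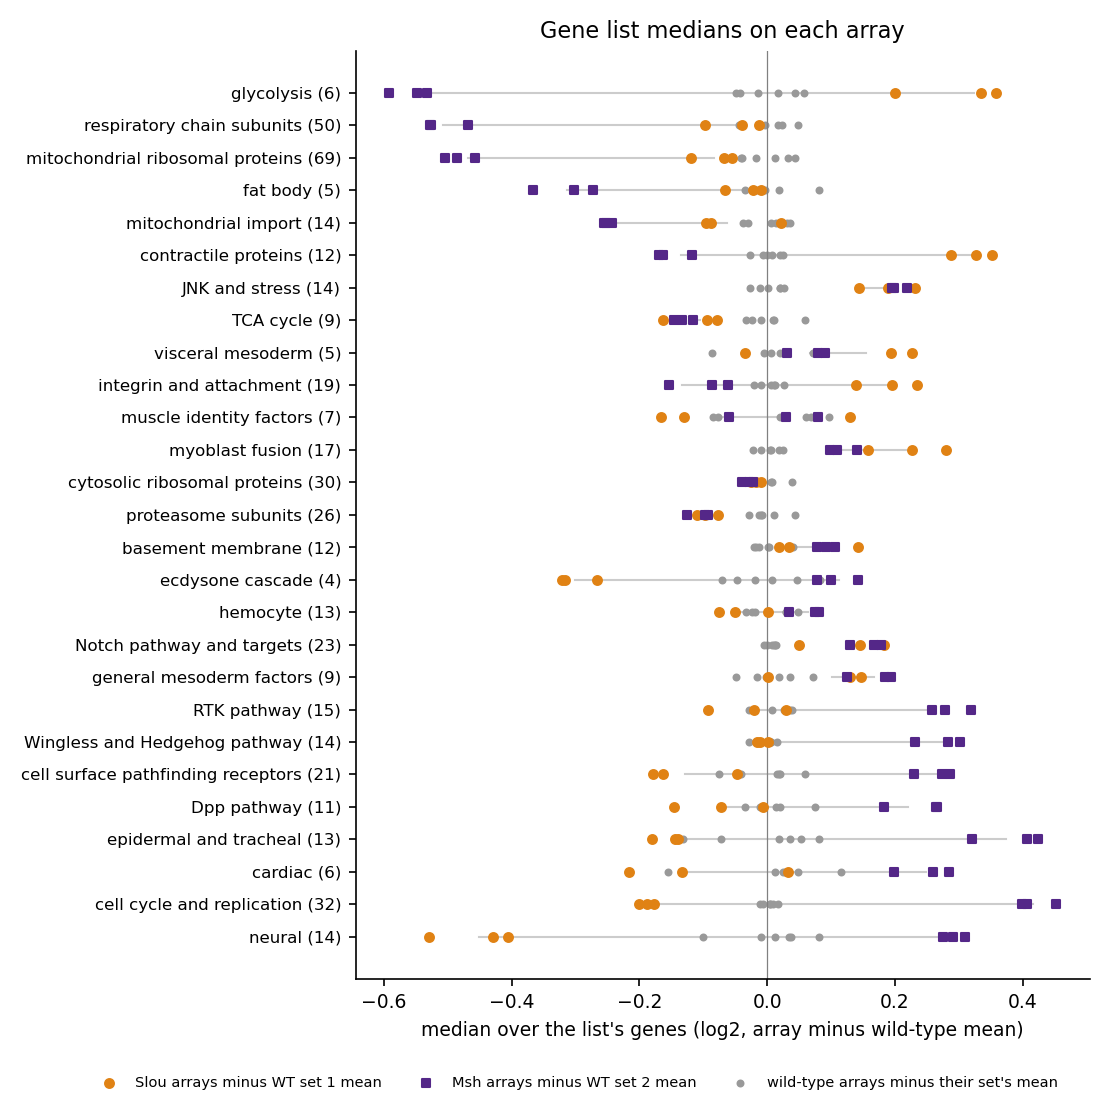
Median over the genes of each list (number of members in brackets) on each array, as the difference from the mean of the wild-type arrays of that scaling (x axis, log2). Orange circles are Slou arrays, purple squares Msh arrays and small grey points wild-type arrays, with grey lines joining the medians of the 2 effects. Slou and Msh arrays lie on opposite sides of 0 for neural, cell cycle, epidermal, glycolytic and contractile lists, among others such as integrin and attachment. Only Msh arrays lie far from 0 for the mitochondrial ribosomal, respiratory chain and mitochondrial import lists, while for the TCA cycle both lie slightly below 0.

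Because each factor has its own wild-type set, a difference of effects contains a difference between controls. After quantile normalization of all 12 arrays it equals the Slou minus Msh term less the WT set 1 minus WT set 2 term. For the 1020 members the median size was 0.529 for the Slou minus Msh term and 0.289 for the wild-type term. The Slou minus Msh term had the sign of the difference in 934 members, and the wild-type term was the larger in 312, 30.6%. With the wild-type sets exchanged, 708 kept their sign, 414 of the 556 higher and 294 of the 464 lower. By construction these are the members whose Slou minus Msh term is the larger. Wild-type set and scaling cannot be told apart.

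The lists divided on this measure. Mitochondrial ribosomal proteins had a median wild-type term of -0.04 beside 0.42 for Slou minus Msh, the respiratory chain -0.13 beside 0.31, and the neural list -0.22 beside -1.03. For cell cycle genes the terms were 0.31 and -0.35, for contractile genes -0.33 and 0.28, and for glycolysis -0.36 and 0.35, so the 2 terms were similar in size. With the controls exchanged the medians of these 3 lists were 0.06, 0.03 and -0.12, against 0.35 for mitochondrial ribosomal proteins, 0.21 for the respiratory chain (19 higher and 8 lower), -1.22 for neural genes and 0.14 over all genes. Both terms run across the 2 scalings, so neither is free of the scaling. Among named genes, sns had a wild-type term of -2.24 and a Slou minus Msh term of -0.69, and TpnC73F -1.59 and 0.92. PPO2 had -0.57 and 2.36, Ance 0.23 and -2.20, and slou 1.02 and 6.86.

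**Figure D5:**
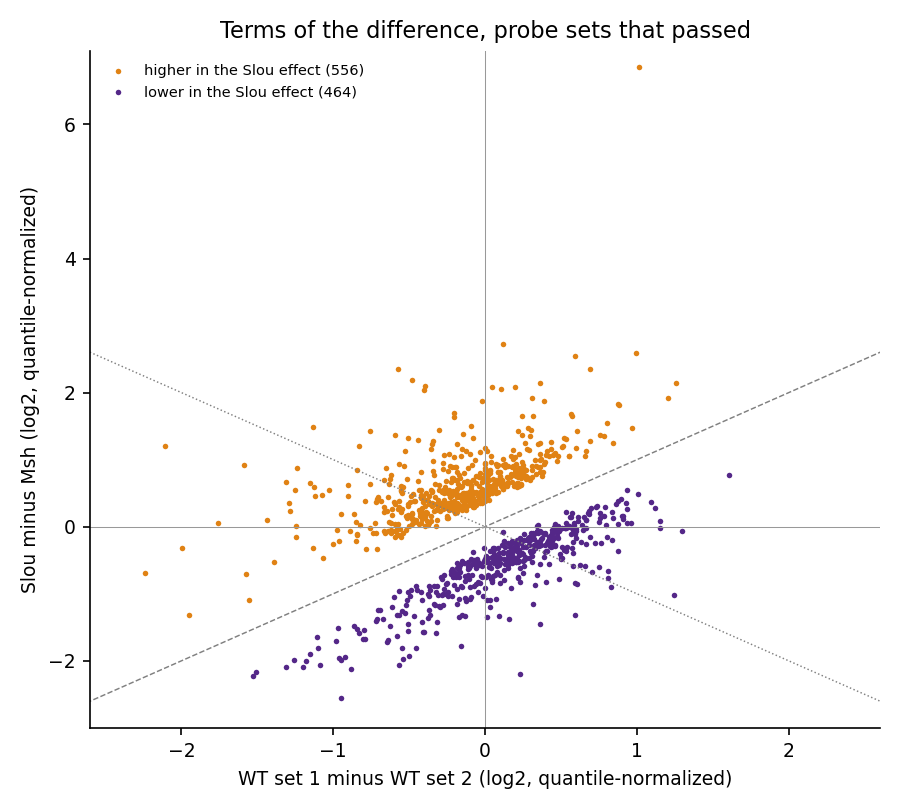
Slou minus Msh (y axis) against WT set 1 minus WT set 2 (x axis), both log2 after quantile normalization, for the 1020 members with a passing difference. Points between the dashed and dotted diagonals on the left and right have the larger wild-type term, as 312 members do. Orange points (556) lie above the dashed line of equal terms and purple points (464) below it.

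Separate probe sets for one gene mostly gave one direction. Of 161 genes with several member probe sets, 59 had at least 1 that passed, and in 48 of these all probe sets had one sign. All probe sets passed in 21 genes, and each of the 21 had a single sign. Among 2099 pairs of members that are neighbours in the RefSeq gene order, both passed in 91, which is 21.9% of the 415 pairs whose first gene passed and close to the 21.8% of all members. They had the same direction in 60 pairs, 37 higher and 23 lower, and opposite directions in 31.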

How the data were processed

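The deposited log2 values, 1 per probe set and array, were made by the authors with the R package affy, per the submitters' processing notes, whose version is not given. Background correction, scaling and summary method are not given in the sources used here, and the log base was inferred from their range. The column map used no column of another sample. In R 4.3.3, limma 3.58.1 without intensity trend fitted each effect on its 6 arrays and the difference of effects on 12 arrays with 4 group means, with Benjamini-Hochberg adjustment over 18769 probe sets after 183 controls were dropped. Probe sets were named through the platform annotation, updated by gene ID to RefSeq for 13544 of 13647. Of several probe sets of a gene the one with the highest mean stands for it in lists. Signal over background and the number of arrays limit precision.

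The members, the 27 lists and the tests were chosen with earlier results of these data known, and 2 lists, TCA cycle and mitochondrial import, after mitochondrial counts had been seen. Genes named are slou and Dr, the 10 largest differences in each direction that keep their sign without each array, up to 8 shared and 8 opposed in each direction by the smaller effect, and up to 5 per list by p. kn, elav, sens, btl, vas, htl, zfh1, sls, Actn and other further list members or markers were picked with their values in view. Same-lettered arrays had correlations of their deviations of -0.03, -0.02 and -0.12 in WT set 1 and Slou, and of 0.31, 0.04 and 0.22 in WT set 2 and Msh, against -0.28 to 0.18 for other letters. Since not every pair exceeded 0.1 in either scaling, the letters were not taken to pair arrays. The fits were tested on simulated data.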

Additional observations from a re-analysis of the deposited data

Results flagged for a closer look

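The count of 1020 members whose Slou and Msh effects differ by the limma test of the difference is itself a difference between groups. So are the 21 genes, each by its best probe set, that passed in both effects with opposite directions and in the difference. Those higher in Slou were slou (6.06), Apoltp (2.73), Mlc1 (2.62), TpnC73F (2.52), CG5177 (2.43), alphaTub85E (2.12), CG5958 (1.95), mnd (1.86), CG4239 (1.81), Kaz-m1 (1.69), kcc (1.67), CG5080 (1.64), Tep4 (1.60), CG11158 (1.55), SPARC (1.55), CG34417 (1.53) and Adgf-A (1.20), as differences of effects on the log2 scale. Those lower were CG2930 (-1.92), DAAM (-1.41), CG8312 (-1.34) and Brd (-1.29).

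Outside the members, 217 of the 4720 probe sets with no gene symbol in the annotation had a passing difference. The Act5C control's 3' minus 5' signal averaged 2.23 in Msh, above all wild-type arrays.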

How the results depend on the processing

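The limma counts were 1020 for the difference, 187 for Slou, 600 for Msh, 36 shared and 22 opposed. With an intensity trend they were 1990, 1597, 2287, 475 and 404, and in a fit of members alone 2332, 1705, 2553, 499 and 471. One fit of all 12 arrays gave 825 for Slou, 1090 for Msh, 163 shared and 130 opposed. With the replicate letter as a block they were 192, 0, 0, 0 and 0, with 550 members for Slou and 1294 for Msh at an unadjusted p under 0.05; the letters were not taken to pair the arrays, and the block uses up degrees of freedom. Crossed wild types gave 2700 differences, and an absolute difference of at least 1 left 172. A limit of 4 gave 56 shared, a limit of 6 gave 13 opposed, and a same-percentile limit gave 69 shared, by admitting or removing members. Leaving out 1 array gave 597 to 802 differences, 0 to 187 for Slou, 3 to 600 for Msh, 0 to 21 shared and 0 to 7 opposed. After quantile normalization the counts were 996, 168, 655, 38 and 23, and 981 of the 1020 were called again. Of 116 named genes with a passing difference, 21 lost it without at least 1 array.

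Among named genes with a passing difference, crossed wild types reversed 31, by construction where the wild-type term is larger. The crossed differences were Ald1 -1.34, alphaTub85E -0.36, bap 1.24, Brd 0.070, CG11158 -0.61, CG30344 0.43, CG33090 -0.95, CG34417 -1.04, CG5002 0.23, dpa 0.090, Egfr 0.80, Eno -0.65, gcm 0.039, gsb 0.15, Hsc70-3 0.0070, Hsp27 -2.65, Ilk -0.21, Incenp 0.20, jhamt -0.90, kirre 0.61, Lsd-2 -0.97, Pax -0.045, Ppn 0.020, PPO1 -1.46, ptc 0.65, puc -1.17, SERCA -0.31, sns -2.93, TpnC73F -0.67, Vinc -0.67 and Vrp1 -1.07. The cause of the other shifts was not tested.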
